A study of Mus musculus with 158 samples.

Results

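Pool 5 is 1 of 19 pools of short hairpin RNAs that were carried through a growth screen in PDA530 Met, a mouse pancreatic adenocarcinoma line labelled as coming from a liver metastasis. Its members were taken by label: the day 0 pellets 5A to 5C, the cultures 4/5A to 4/5C and the lung samples 5A to 5C, which are 9 of the 158 samples of the series. They carry 52 of the 1000 targeting hairpins, against 22 genes: 7 genes had 1 hairpin in the pool, 6 had 2, 3 had 3 and 6 had 4. All 9 samples came from cells infected with the pool's virus at a multiplicity of infection of 0.3 and selected with puromycin at 3 µg/ml. Day 0 samples are cells pelleted before injection. Culture samples were kept in dishes for 28 days, and these libraries hold pools 4 and 5 together. Lung samples were taken 28 days after tail-vein injection of 3 mice for the pool, with the tumours of each mouse combined into 1 DNA sample, so separate tumours cannot be seen. No source used here gives the age, sex or strain of the mice. A tail-vein injection seeds the lung directly from blood. The labels do not say whether A to C at day 0 were separate infections or separate pellets of 1 infected population, so p-values measure the spread between these samples, which may be technical.

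A hairpin is a short RNA that folds on itself and is cut into a guide that lowers the RNA of one gene. The virus writes the hairpin into the genome of the cell, and every daughter cell inherits it. The share of reads from a hairpin in genomic DNA therefore counts the descendants of the cells that carried it. A share grows when those cells multiply faster than the others and shrinks when they multiply more slowly or are lost. In lungs it also depends on which of the injected cells settled there. Hairpins against 1 gene can differ in how well they lower it and in which other RNAs they hit. The protein loss was not measured here, and DNA carries no marker by which the labelled tissue could be checked.

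In lung tumours, the share of cells with the hairpin against Cald1 was 4.94 times that at day 0, and the shares of 1 hairpin each against Atp10a, Ptpn12, Zmym6, Ctnna2, Prkdc and F8 were 1.5 to 2.51 times it. In culture, 1 hairpin against Pik3cd grew from 4.88% to 16.1% of the pool and 1 against Coch from 2.74% to 9.02%, whereas in lungs these had 5.42% and 2.90%. Hairpin TRCN0000108888 against Ctnna2 differed most between lungs and culture, with 27.2 times the share in lungs. Hairpins against 1 gene could go opposite ways, in a share of genes that depended on the scaling, so the values below are given per hairpin.

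The 9 libraries held 8642533 to 9787379 reads at day 0, 7646810 to 8986848 in culture and 6356940 to 8785515 in lungs. Pool 5 supplied 59.1% ± 0.33 (SD, n = 3) of the reads at day 0, 66.0% ± 2.38 in lungs and 30.1% ± 1.65 in culture, where pool 4 hairpins took another 31.7% to 37.0%. Pool 5 thus had 43.4%, 49.9% and 48.8% of the targeting reads of both pools in cultures A, B and C. Between 2314306 and 5782632 pool 5 reads stood behind the shares of a library, so counting error was small for most hairpins. Reads were not tagged per molecule, and the chi-square of reads per degree of freedom between replicate libraries was 198 to 6345, far beyond counting error, so no library is a copy of another. Hairpins of pools that a library should not hold made up 0.0368% to 0.308% of its reads, against a median of 0.234% and a range of 0.0217% to 3.03% over all 58 day 0 libraries. In all that follows a share is the percentage of a library's reads from the 52 targeting hairpins of pool 5.

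The pool became more uneven in both places. The effective number of hairpins, the exponential of the Shannon entropy of the shares, would be 52 if all were equal. It was 27.9, 28.2 and 29.2 in day 0 libraries A to C, 19.4, 19.8 and 21.0 in culture and 19.96, 23.2 and 21.6 in lungs. All day 0 values were above all others. The mean differed from day 0 by -6.86 in lungs and by -8.37 in culture (exact two-sided permutation p = 0.1 for each, the smallest that 3 against 3 can give). Lungs and culture overlapped, with a difference of 1.51 (exact permutation p = 0.2).

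Fewer hairpins carried most cells. The first 8 hairpins held 50% of the pool in each day 0 library, 5 did so in each culture and 5, 6 and 6 in lungs A to C. At day 0 the most abundant were St14 TRCN0000032416, Ptpn12 TRCN0000029881 and Ptpn12 TRCN0000029880, at mean shares of 9.92%, 8.89% and 8.27%. In culture they were Pik3cd TRCN0000024648, St14 TRCN0000032416 and Ptpn12 TRCN0000029880, at 16.1%, 12.9% and 10.4%. In lungs they were Ptpn12 TRCN0000029880, St14 TRCN0000032416 and Ptpn12 TRCN0000029881, at 14.7%, 11.4% and 9.61%. At the low end, 6 hairpins were under 0.1% in every day 0 library, against 9, 10 and 10 in cultures A to C and 12, 9 and 7 in lungs A to C. Complete absence was rare: 1 hairpin had 0 reads in culture A and 1 in culture C, and 2 had 0 reads in lungs A.

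**Figure D1:**
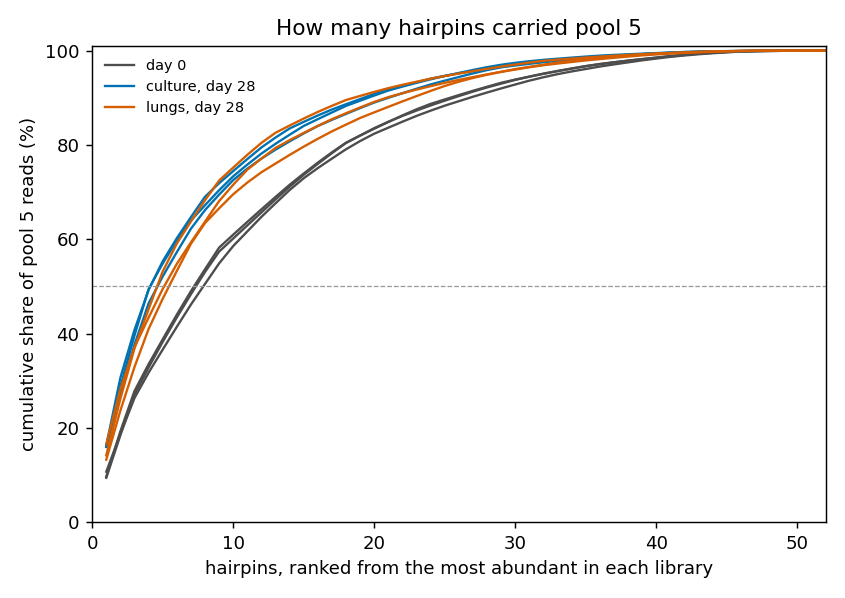
Cumulative share of pool 5 reads (%, vertical axis) against the number of hairpins counted from the most abundant (horizontal axis), 1 line per library, 3 lines per arm. The day 0 lines reach the dashed 50% line at 8 hairpins, the culture lines at 5 and the lung lines at 5 or 6.

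Mice resembled each other more in pool 5 than in most pools. The mean Pearson r of log2 values over hairpins between lung libraries was 0.952 (0.929 to 0.965 over the 3 pairs), the second highest of 17 pools, whose median was 0.903 and lowest 0.712. In culture it was 0.968, rank 4 of 18 pools, and at day 0 it was 0.990, rank 13 of 19. Spearman's rho was 0.934 in lungs, 0.961 in culture and 0.991 at day 0. These are descriptions across hairpins, which are not independent replicates.

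Each hairpin was then tested between arms by limma on log2(CPM + 1), where CPM is a hairpin's reads scaled to a fixed total of pool 5 targeting reads and then by TMM factors. TMM sets 0 at the typical abundant hairpin rather than at a constant total. A log2 change is therefore relative to the rest of the pool, and on plain shares the median is lower by 0.55 for lungs against day 0 and by 0.75 for culture against day 0, and higher by 0.23 for lungs against culture. A hairpin is called at a Benjamini-Hochberg adjusted p of at most 0.05 over all pools. Called, higher and lower refer to the TMM scale unless another scale is named, and a hairpin not called there can be called on another scale.

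From day 0 to lungs, 19 of the 52 hairpins were called, which is 36.5% against 33.8% over all pools. Of these, 9 were called higher (17.3% of the 52, against 14.7% over all pools) and 10 lower (19.2% against 19.1%). The median log2 change over the 52 was -0.21, beside -0.13 over all pools, and the median size of change was 0.68, beside 0.90. On library totals 29 were called, 7 higher and 22 lower, so the balance of directions depends on the scaling. Leaving out 1 library gave 15 to 24 calls.

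From day 0 to culture, 38 of 52 were called, or 73.1% against 60.6% over all pools: 19 were called higher (28.8% over all pools) and 19 lower (31.9%). The median size of change was 1.05, beside 0.92 over all pools. On library totals 9 were called higher and 28 lower. Per control hairpin read only 4 were higher and 37 lower, and on the deposited values 5 and 36, but culture libraries hold the controls of pools 4 and 5 together. Between lungs and culture, 16 of 52 were called, or 30.8% against 24.9% over all pools, with 7 higher in lungs (11.6% over all pools) and 9 lower (13.3%). Per control read this split became 30 higher and 1 lower, and on the deposited values 24 and 3. The count for lungs against culture was 10 under plain eBayes and 11 to 15 with 1 library left out.

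**Figure D2:**
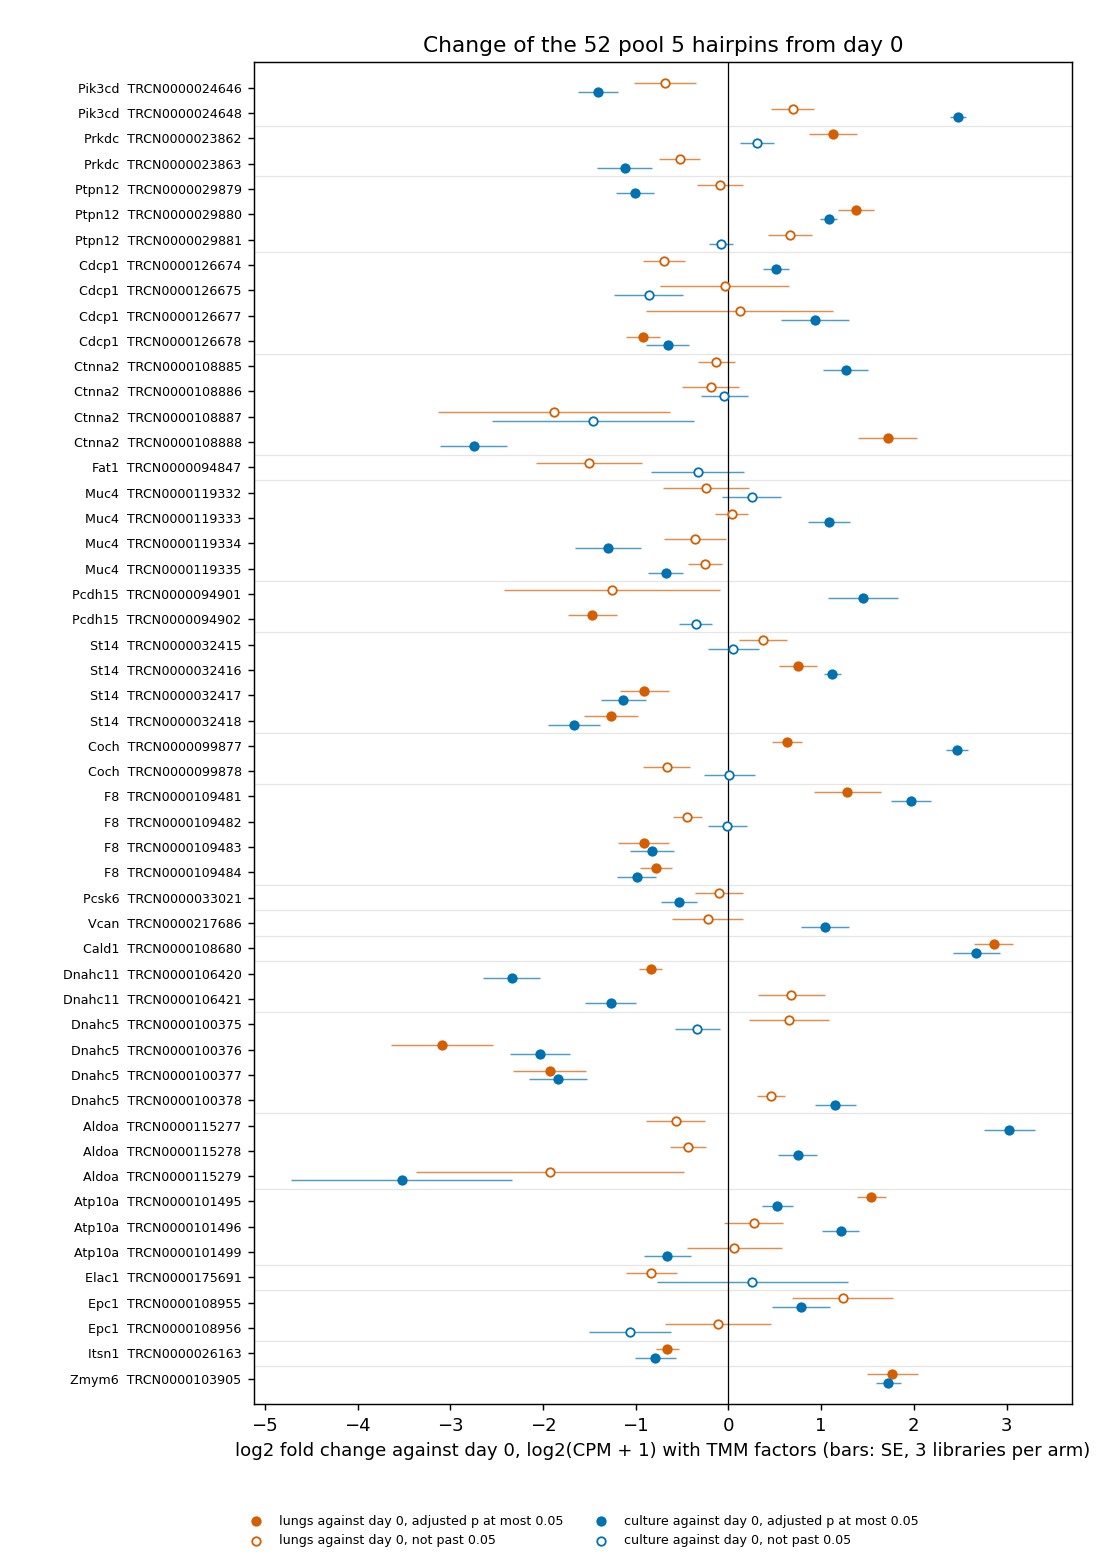
Log2 fold change against day 0 (horizontal axis, log2(CPM + 1) with TMM factors) of the 52 hairpins, grouped by gene, for lungs in orange and culture in blue. Points are limma estimates from 3 libraries per arm, bars are their SE, and filled points passed an adjusted p of 0.05: 19 for lungs and 38 for culture. On library totals the median lies 0.55 further left for lungs and 0.75 for culture, which puts 3 of the culture rises below 0.

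Among the signalling enzymes, 2 of 7 hairpins were called higher in lungs and none lower (14.7% and 19.1% over all pools), and on library totals 2 higher and 3 lower. In culture 2 were called higher and 3 lower (28.8% and 31.9% over all pools), against 2 and 5 on library totals and 1 and 6 per control read. Between lungs and culture 3 were called higher and 1 lower (11.6% and 13.3% over all pools), against 6 and 0 per control read. Pik3cd encodes p110 delta, a catalytic subunit of PI3-kinase, which passes growth factor signals to AKT. Its hairpin TRCN0000024648 had shares of 4.98%, 4.93% and 4.72% at day 0, 16.3%, 16.0% and 16.1% in culture and 5.93%, 5.76% and 4.56% in lungs. The cultures stand far above the other 6 libraries and hardly differ among themselves, while lungs and day 0 overlap. It rose in culture by a log2 change of 2.47 (SE 0.09, limma adjusted p = 1.6e-11). Its change in lungs was 0.70 (limma adjusted p = 0.0592), and lungs were lower than culture by -1.81 (SE 0.17, limma adjusted p = 1.66e-05), or -0.34 per control read (limma adjusted p = 0.215).

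The other hairpin against Pik3cd, TRCN0000024646, went the opposite way in culture. It had 4.66%, 4.32% and 4.82% at day 0, 0.780%, 1.06% and 1.32% in culture and 2.70%, 1.66% and 1.66% in lungs. The 3 arms do not overlap, with culture lowest. It fell in culture by a log2 change of -1.41 (SE 0.22, limma adjusted p = 9.47e-05), while lungs against day 0 gave -0.68 (limma adjusted p = 0.157), or -1.23 on library totals (limma adjusted p = 0.000575). Both hairpins began at nearly the same share, 4.88% ± 0.14 and 4.6% ± 0.26, and had 16.1% ± 0.16 and 1.05% ± 0.27 after culture (SD, n = 3).

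Ptpn12 encodes PTP-PEST, a tyrosine phosphatase that acts on adhesion and receptor kinase signalling. Hairpin TRCN0000029880 had 8.53%, 8.65% and 7.63% at day 0, 10.1%, 10.8% and 10.2% in culture and 14.2%, 13.3% and 16.6% in lungs. The arms form 3 separate steps, with lungs highest. It rose in lungs by 1.38 (SE 0.20, limma adjusted p = 0.00313) and in culture by 1.08 (SE 0.10, limma adjusted p = 5.68e-07), though the culture value was -0.33 on the deposited values and -0.47 per control read, both called lower. Lungs against culture gave 0.26 (limma adjusted p = 0.266), or 0.49 on library totals (limma adjusted p = 0.0072).

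The other Ptpn12 hairpins had lower shares in culture than in lungs. TRCN0000029881 had 9.67%, 9.02% and 7.99% at day 0, 4.47%, 4.88% and 5.71% in culture and 10.7%, 9.24% and 8.90% in lungs, so that only culture stood apart. Against day 0 the culture change was -0.08 on the TMM scale (limma adjusted p = 0.612) and -0.83 on library totals (limma adjusted p = 9.08e-05). It was higher in lungs than in culture by 0.71 (SE 0.16, limma adjusted p = 0.00787, with 0.0537 without culture A and 0.0579 under plain eBayes). TRCN0000029879 had 2.31%, 2.26% and 2.01% at day 0, 0.550%, 0.640% and 0.766% in culture and 1.53%, 1.17% and 1.53% in lungs. All lung values lie between the other arms. It fell in culture by -1.01 (SE 0.21, limma adjusted p = 0.000999), and lungs were above culture by 0.89 (SE 0.27, limma adjusted p = 0.0319). Without culture A, B or C or lungs C that last p was 0.0814, 0.0557, 0.0698 and 0.0619, and with at least 1000 reads per hairpin it was 0.0625.

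Prkdc encodes the catalytic subunit of the DNA-dependent protein kinase, which joins broken DNA ends. Hairpin TRCN0000023862 had 5.22%, 5.43% and 4.35% at day 0, 4.89%, 3.23% and 3.09% in culture and 8.28%, 8.06% and 6.08% in lungs. Lungs are above all other libraries, while culture and day 0 overlap. Against day 0 the culture change of this hairpin was 0.31 (limma adjusted p = 0.159), or -0.45 on library totals (limma adjusted p = 0.047). In lungs it rose by 1.13 (SE 0.26, limma adjusted p = 0.0182). It was higher in lungs than in culture by 0.79 (SE 0.25, limma adjusted p = 0.0351, with 0.0526 by edgeR and 0.128 under plain eBayes), with limma adjusted p = 0.105, 0.0663, 0.0902 and 0.0637 without culture B, culture C, lungs A or lungs B. The other hairpin, TRCN0000023863, fell in culture from a mean of 0.580% to 0.163%, by -1.12 (SE 0.30, limma adjusted p = 0.0055), and its lung mean was 0.275% (-0.53 against day 0, limma adjusted p = 0.11, or -1.08 on library totals, limma adjusted p = 0.0162).

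The surface group holds adhesion proteins, a mucin and a membrane protease. Of its 19 hairpins, 2 were called higher and 4 lower in lungs (14.7% and 19.1% over all pools), against 1 and 7 on library totals. In culture 6 were called higher and 6 lower (28.8% and 31.9% over all pools), but 1 and 9 on library totals and 0 and 15 per control read, so the higher calls of this group depend on the scaling. Between lungs and culture 1 was called higher and 4 lower (11.6% and 13.3% over all pools), but 10 and 0 per control read. Ctnna2 encodes alpha-N-catenin, which ties cadherins to actin and is best known in neurons. Hairpin TRCN0000108888 had 0.382%, 0.366% and 0.375% at day 0, 0.0385%, 0.0434% and 0.0216% in culture and 0.519%, 1.58% and 0.721% in lungs. Every culture is below and every lung above the start, and lung B has more than the sum of the other lungs. It rose in lungs by 1.72 (SE 0.32, limma adjusted p = 0.00835), fell in culture by -2.75 (SE 0.36, limma adjusted p = 2.69e-05) and was higher in lungs than in culture by 4.43 (SE 0.56, limma adjusted p = 0.000149). All 3 calls held under every alternative tried.

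The other hairpins against Ctnna2 did not repeat that pattern. TRCN0000108885 had 0.620%, 0.560% and 0.523% at day 0, 0.751%, 0.698% and 1.01% in culture and 0.250%, 0.418% and 0.421% in lungs, with no overlap between arms and lungs lowest. It rose in culture by 1.26 (SE 0.24, limma adjusted p = 0.000561), though this was -0.14 on the deposited values and -0.29 per control read, and 0.51 on library totals (limma adjusted p = 0.0766). Lungs were below culture by -1.42 (SE 0.29, limma adjusted p = 0.00425), with 0.045 per control read and -0.26 on the deposited values (limma adjusted p = 0.515). TRCN0000108886, at 2.22% of day 0, had log2 changes of -0.19 in lungs and -0.04 in culture, neither called, with -0.80 in culture on library totals (limma adjusted p = 0.0161). TRCN0000108887 was almost absent from the start, at 0.00162%, and had no call on the TMM scale.

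Pcdh15 encodes a protocadherin of the inner ear and Fat1 an atypical cadherin that restrains growth. Pcdh15 TRCN0000094902 had 4.59%, 4.72% and 4.89% at day 0, 2.55%, 2.48% and 1.69% in culture and 1.41%, 1.10% and 1.02% in lungs. The arms descend without overlap. It fell in lungs by -1.47 (SE 0.26, limma adjusted p = 0.00731). It was lower in lungs than in culture by -1.15 (SE 0.32, limma adjusted p = 0.0224), but 0.017 on the deposited values and 0.32 per control read. Without culture A, culture B, lungs B or lungs C the p of that comparison was 0.131, 0.127, 0.0836 and 0.0919, and under plain eBayes 0.0512.

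The second Pcdh15 hairpin was rare. TRCN0000094901 had 0.0186%, 0.0268% and 0.0307% at day 0, 0.0652%, 0.0421% and 0.0239% in culture and 0.000828%, 0.0325% and 0.0123% in lungs, and all arms overlap. The culture call of 1.45 (SE 0.38, limma adjusted p = 0.00506) was 0.70 on library totals (limma adjusted p = 0.15), 0.046 on the deposited values and -0.10 per control read, and was lost where day 0, culture and lungs shared 1 fit (the 3-arm fit, 0.343). Fat1 TRCN0000094847 had a mean share of 0.178% at day 0, 0.109% in culture and 0.0475% in lungs. Its log2 change of -1.51 in lungs was not called (limma adjusted p = 0.0856), although all 3 lung shares were below the day 0 range and library totals gave -2.06 (limma adjusted p = 0.00663).

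Cdcp1 encodes a transmembrane glycoprotein phosphorylated by Src kinases in detached cells. Hairpin TRCN0000126674 had 5.27%, 5.17% and 4.38% at day 0, 4.33%, 4.25% and 3.96% in culture and 2.15%, 1.84% and 2.25% in lungs. Lungs are lowest, at 0.498 times the culture mean. Lungs were lower than culture by -1.24 (SE 0.23, limma adjusted p = 0.00216), but 0.23 per control read. The culture value against day 0 was called at 0.51 (SE 0.14, limma adjusted p = 0.00532). However, all culture shares were below the day 0 range and library totals gave -0.24 (limma adjusted p = 0.0884), so no direction is given. The deposited values gave -0.89 and control reads -1.04, both called lower. Culture libraries hold pools 4 and 5 with the controls of both, so these calls give no direction either. In lungs against day 0 this hairpin gave -0.70 (limma adjusted p = 0.0582), or -1.25 on library totals (limma adjusted p = 0.000179). The 3-arm fit gave the culture value a limma adjusted p of 0.0581, and the deposited values gave lungs against culture 0.798.

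Cdcp1 TRCN0000126678 fell in both places. It had 0.561%, 0.645% and 0.658% at day 0, 0.242%, 0.203% and 0.259% in culture and 0.176%, 0.245% and 0.257% in lungs, so all 6 later libraries lie below the start. The log2 change was -0.92 in lungs (SE 0.19, limma adjusted p = 0.0107) and -0.66 in culture (SE 0.23, limma adjusted p = 0.0231), and the limma adjusted p was 0.0868 and 0.122 without day 0 B and 0.068 and 0.0798 with the library letters A to C as a replicate block. The 3-arm fit gave 0.0581 in culture. Among the Cdcp1 hairpins TRCN0000126677 varied most between mice, with 0.0808%, 2.48% and 0.483% in lungs A to C from 0.60%, 0.690% and 0.573% at day 0. Cultures A to C had 0.430%, 1.40% and 0.582%. Its culture call of 0.94 (SE 0.37, limma adjusted p = 0.0403) was lost without day 0 C, culture B or culture C (0.195, 0.11 and 0.0687), with plain eBayes (0.107) and in the 3-arm fit (0.582). It was 0.43 without culture B, 0.18 on library totals, -0.47 on the deposited values and -0.62 per control read. TRCN0000126675, at 0.159% of day 0, had no call on the TMM scale, but -1.61 in culture on library totals (limma adjusted p = 0.00369).

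Muc4 encodes a large membrane mucin that is made by many pancreatic tumours. None of its 4 hairpins was called in lungs against day 0, where their log2 changes ran from -0.36 to 0.04, although on library totals TRCN0000119335 was lower, at -0.81 (limma adjusted p = 0.0122). In culture TRCN0000119335 fell from 2.67%, 2.76% and 3.08% to 1.09%, 1.10% and 0.968%, by -0.68 (SE 0.19, limma adjusted p = 0.00724). TRCN0000119334 fell from 0.272%, 0.303% and 0.433% to 0.110%, 0.0506% and 0.0894%, by -1.30 (SE 0.36, limma adjusted p = 0.00677). Their lung shares were 1.29%, 2.19% and 1.5%, and 0.196%, 0.211% and 0.128%, between the other arms in each case. TRCN0000119332, at 0.177% of day 0, had no call on the TMM scale or on library totals, and -1.30 in culture per control read (limma adjusted p = 0.00349).

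Muc4 TRCN0000119333 did the reverse. It had 1.45%, 1.35% and 1.27% at day 0, 1.27%, 2.08% and 1.90% in culture and 0.646%, 1.04% and 1.27% in lungs. Culture overlaps both other arms. The rise in culture of 1.08 (SE 0.23, limma adjusted p = 0.00118) was 0.33 on library totals (limma adjusted p = 0.199), -0.32 on the deposited values and -0.47 per control read. Lungs were below culture by -1.08 (SE 0.36, limma adjusted p = 0.0473, and 0.0629 by edgeR), but 0.086 on the deposited values and 0.39 per control read. That call was lost without culture B or C or lungs A, B or C (0.151, 0.0708, 0.121, 0.0929 and 0.0566), on library totals (0.101) and under plain eBayes (0.0793).

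St14 encodes matriptase, a membrane serine protease of epithelial cells that activates growth factors at the surface. TRCN0000032416, the most abundant hairpin of the starting pool, had 9.61%, 9.43% and 10.7% at day 0, 14.4%, 12.8% and 11.4% in culture and 12.0%, 10.4% and 11.7% in lungs. Cultures are all above the start, and lungs overlap both. It rose in culture by 1.12 (SE 0.09, limma adjusted p = 2.31e-07), though this was -0.28 on the deposited values and -0.43 per control read, both called lower. In lungs it rose by 0.75 (SE 0.20, limma adjusted p = 0.0323), a call lost without lungs C (0.0655) and on library totals (0.19, limma adjusted p = 0.165).

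The next hairpins against St14 fell in both later arms. TRCN0000032417 had 2.75%, 2.69% and 3.68% at day 0, 1.12%, 0.596% and 0.807% in culture and 1.23%, 0.905% and 1.17% in lungs. TRCN0000032418 had 0.910%, 0.885% and 1.27% at day 0, 0.183%, 0.135% and 0.273% in culture and 0.160%, 0.440% and 0.330% in lungs. All later libraries are below the start, and lungs overlap culture. The log2 changes in lungs were -0.91 (SE 0.27, limma adjusted p = 0.0393, with 0.0714 and 0.0548 without lungs B or C and 0.0534 under plain eBayes) and -1.27 (SE 0.29, limma adjusted p = 0.0182). In culture they were -1.13 (SE 0.24, limma adjusted p = 0.00134) and -1.66 (SE 0.28, limma adjusted p = 0.000222). TRCN0000032415, at 0.581% of day 0, had no call on the TMM scale or on library totals, and -1.5 in culture per control read (limma adjusted p = 0.000864).

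**Figure D3:**
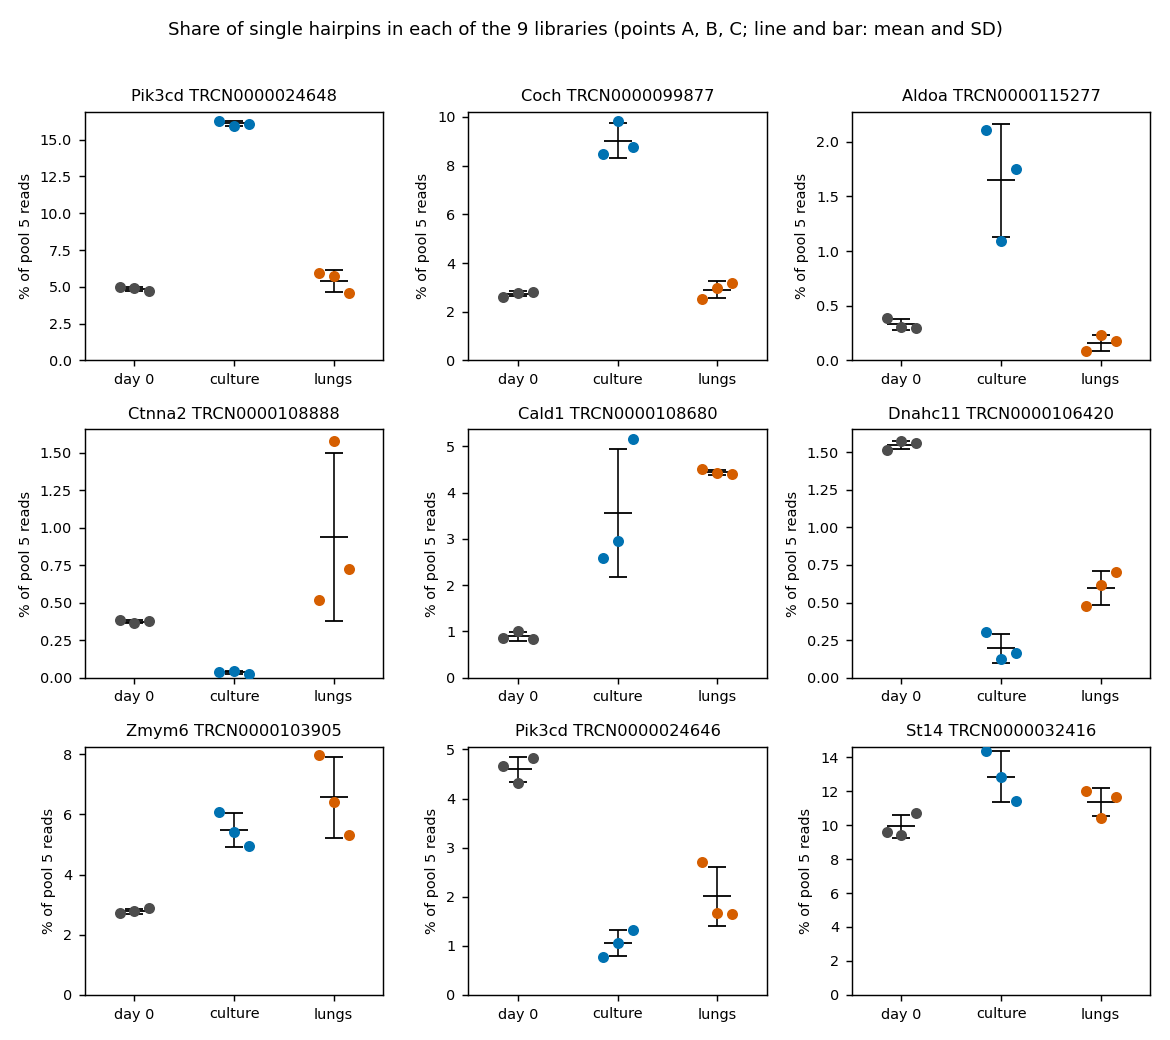
Share of 9 single hairpins in the libraries, as a percentage of pool 5 reads (vertical axes, each from 0) by arm (horizontal axes). Points are libraries A, B and C, horizontal lines the mean and bars the SD. Pik3cd TRCN0000024648 and Coch TRCN0000099877 are high only in culture, at 16.1% and 9.02%, Ctnna2 TRCN0000108888 is nearly lost there, at 0.0345%, and Cald1 TRCN0000108680 is high in both later arms, at 3.56% and 4.44%.

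Of the 8 hairpins against secreted proteins, 2 were called higher and 2 lower in lungs (14.7% and 19.1% over all pools), against 1 and 5 on library totals. In culture 3 were called higher and 3 lower (28.8% and 31.9% over all pools), against 2 and 5 on library totals and 1 and 5 per control read. Between lungs and culture 2 were called lower in lungs and none higher (13.3% and 11.6% over all pools), but 0 and 4 per control read. Coch encodes cochlin, an extracellular matrix protein of the inner ear. TRCN0000099877 had 2.62%, 2.77% and 2.82% at day 0, 8.46%, 9.83% and 8.77% in culture and 2.53%, 2.99% and 3.19% in lungs. Cultures are 3.29 times the start while lungs and day 0 overlap. It rose in culture by 2.47 (SE 0.12, limma adjusted p = 7.22e-10). Lungs were lower than culture by -1.87 (SE 0.20, limma adjusted p = 4.2e-05), or -0.40 per control read (limma adjusted p = 0.115). Its lung call against day 0, at 0.63 (SE 0.16, limma adjusted p = 0.0238), was 0.079 on library totals (limma adjusted p = 0.725) and was lost without day 0 A, B or C (0.116, 0.0882 and 0.0992), on the deposited values (0.111) and with the replicate block (0.0678). The second hairpin, TRCN0000099878, had 0.289% at day 0, 0.174% in culture and 0.125% in lungs. It was not called on the TMM scale, but on library totals it was lower in lungs, at -1.22 (limma adjusted p = 0.0241), and in culture, at -0.74 (limma adjusted p = 0.0342).

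F8 encodes clotting factor VIII, a secreted cofactor made mainly by endothelial cells of the liver. TRCN0000109481 had 1.3%, 1.14% and 1.06% at day 0, 2.87%, 3.19% and 2.14% in culture and 2.75%, 1.83% and 1.41% in lungs. All later libraries are above the start. It rose in lungs by 1.28 (SE 0.36, limma adjusted p = 0.0346, and 0.0503 under plain eBayes) and in culture by 1.97 (SE 0.22, limma adjusted p = 5.2e-06), with 0.41 per control read in culture (limma adjusted p = 0.108).

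The opposite held for the next F8 hairpins. TRCN0000109484 had 2.39%, 2.53% and 2.5% at day 0, 0.591%, 0.747% and 0.914% in culture and 0.648%, 1.19% and 1.22% in lungs. TRCN0000109483 had 0.849%, 0.798% and 0.944% at day 0, 0.286%, 0.339% and 0.251% in culture and 0.376%, 0.295% and 0.273% in lungs. Both are below the start in all 6 later libraries. In culture they fell by -0.99 (SE 0.21, limma adjusted p = 0.00132) and -0.82 (SE 0.24, limma adjusted p = 0.00886). In lungs TRCN0000109484 fell by -0.78 (SE 0.17, limma adjusted p = 0.0161), lost without day 0 A, B or C (0.086, 0.0971 and 0.052). The lung change of TRCN0000109483 was -0.91 (SE 0.27, limma adjusted p = 0.0422, and 0.0533 by edgeR), lost without day 0 A or B or lungs B or C (0.0534, 0.0547, 0.0877 and 0.106), under plain eBayes (0.052) and with the replicate block (0.0597). The fourth, TRCN0000109482, had 1.25% at day 0 and -0.44 in lungs and -0.01 in culture, neither called, against -0.99 and -0.76 on library totals (limma adjusted p = 0.00566 and 0.00561).

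Vcan encodes versican, a large matrix proteoglycan, and Pcsk6 the proprotein convertase PACE4, which trims precursors of secreted proteins. Vcan TRCN0000217686 had 0.258%, 0.268% and 0.432% at day 0, 0.333%, 0.410% and 0.404% in culture and 0.190%, 0.123% and 0.255% in lungs. Lungs are below both other arms, which overlap. The Vcan call in culture of 1.05 (SE 0.26, limma adjusted p = 0.00357) was 0.29 on library totals (limma adjusted p = 0.359), -0.36 on the deposited values and -0.51 per control read. Lungs were below culture by -1.30 (SE 0.40, limma adjusted p = 0.0349), but 0.17 per control read. Without culture A, B or C or lungs B that p was 0.0859, 0.118, 0.0584 and 0.0904, and it was 0.0578 on library totals, 0.799 on the deposited values and 0.0586 with the replicate block. Pcsk6 TRCN0000033021 fell in culture from 5.60% ± 0.19 to 2.38% ± 0.78 (SD, n = 3), by -0.53 (SE 0.20, limma adjusted p = 0.0318, and 0.0571 by edgeR). That call was lost without day 0 A or C or culture A or B (0.0555, 0.0624, 0.0655 and 0.0899), and with DESeq2, plain eBayes or the 3-arm fit (0.0854, 0.0977 and 0.0674). Its lung mean was 3.58%, a log2 change of -0.10 (limma adjusted p = 0.795), or -0.65 on library totals (limma adjusted p = 0.00449).

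The motor and cytoskeletal group held the largest called rise and the largest called fall from day 0 to lungs. Of its 7 hairpins, 1 was called higher and 3 lower in lungs on all 4 scales (14.7% and 19.1% over all pools on the TMM scale). In culture 2 were called higher and 4 lower (28.8% and 31.9% over all pools), against 1 and 5 on library totals and per control read. Between lungs and culture 2 were called higher and none lower (11.6% and 13.3% over all pools), against 3 higher on library totals, 4 on the deposited values and 5 per control read, with none lower. Cald1 encodes caldesmon, which binds actin and myosin and restrains contraction. Its only hairpin in the pool, TRCN0000108680, had 0.857%, 1.01% and 0.831% at day 0, 2.58%, 2.95% and 5.15% in culture and 4.51%, 4.42% and 4.40% in lungs. All later libraries are far above the start, and the 3 mice are almost equal while culture C stands above the other cultures. The hairpin rose in lungs by 2.86 (SE 0.21, limma adjusted p = 0.000314) and in culture by 2.67 (SE 0.25, limma adjusted p = 1.17e-06). Lungs against culture gave 0.16 (SE 0.22, limma adjusted p = 0.618), 0.39 on library totals (limma adjusted p = 0.283) and 1.63 per control read (limma adjusted p = 0.00186).

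Dnahc5 and Dnahc11, now named Dnah5 and Dnah11, encode heavy chains of the dynein arms that beat cilia. Dnahc5 TRCN0000100376 had 0.0338%, 0.0373% and 0.0503% at day 0, 0.00784%, 0.00484% and 0.00493% in culture and 0.00172%, 0.00301% and 0.00587% in lungs. It fell in lungs by -3.09 (SE 0.55, limma adjusted p = 0.00674) and in culture by -2.03 (SE 0.32, limma adjusted p = 0.000132), sizes that depend on the pseudocount: with 100 in place of 1 they were -1.62 and -1.22, both called. TRCN0000100377 had 0.0488%, 0.0490% and 0.0691% at day 0, 0.00647%, 0.0103% and 0.0111% in culture and 0.00998%, 0.00946% and 0.00986% in lungs. Both started among the rarest hairpins and ended about as low in lungs as in culture, where the ranges overlap. TRCN0000100377 fell by -1.84 in culture (SE 0.31, limma adjusted p = 0.000225) and by -1.93 in lungs (SE 0.39, limma adjusted p = 0.0106), the latter lost without day 0 A, B or C (0.13, 0.117 and 0.0968).

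The more abundant hairpins against Dnahc5 were not called lower on the TMM scale. TRCN0000100378 had 0.922%, 0.982% and 0.899% at day 0, 1.40%, 1.42% and 0.947% in culture and 0.707%, 1.16% and 0.823% in lungs. Culture and lungs both overlap the start. Its culture call of 1.15 (SE 0.22, limma adjusted p = 0.000556) was 0.40 on library totals (limma adjusted p = 0.116), -0.25 on the deposited values and -0.40 per control read. TRCN0000100375 had 0.488% at day 0, 0.23% in culture and 0.557% in lungs, with no call on the TMM scale. On library totals it was lower in culture than at day 0, at -1.09 (limma adjusted p = 0.00222), and higher in lungs than in culture, at 1.19 (limma adjusted p = 0.036).

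Both hairpins against Dnahc11 were low in dishes and higher in mice. TRCN0000106420 had 1.52%, 1.57% and 1.56% at day 0, 0.305%, 0.122% and 0.163% in culture and 0.478%, 0.615% and 0.703% in lungs, so the lungs sit between the start and culture. TRCN0000106421 had 2.04%, 2.17% and 1.98% at day 0, 0.477%, 0.794% and 0.345% in culture and 1.48%, 1.76% and 4.37% in lungs, where lung C alone exceeds the start. They fell in culture by -2.34 (SE 0.31, limma adjusted p = 2.59e-05) and -1.27 (SE 0.28, limma adjusted p = 0.0015). They were higher in lungs than in culture by 1.47 (SE 0.41, limma adjusted p = 0.0222, with 0.0652 without culture C and 0.0514 under plain eBayes) and 1.92 (SE 0.50, limma adjusted p = 0.0208, with 0.0666 without culture A and 0.0582 under plain eBayes). Against day 0 TRCN0000106420 fell in lungs by -0.84 (SE 0.12, limma adjusted p = 0.00357), lost without day 0 A or B (0.0735 and 0.0897), and TRCN0000106421 had 0.68 (limma adjusted p = 0.195).

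**Figure D4:**
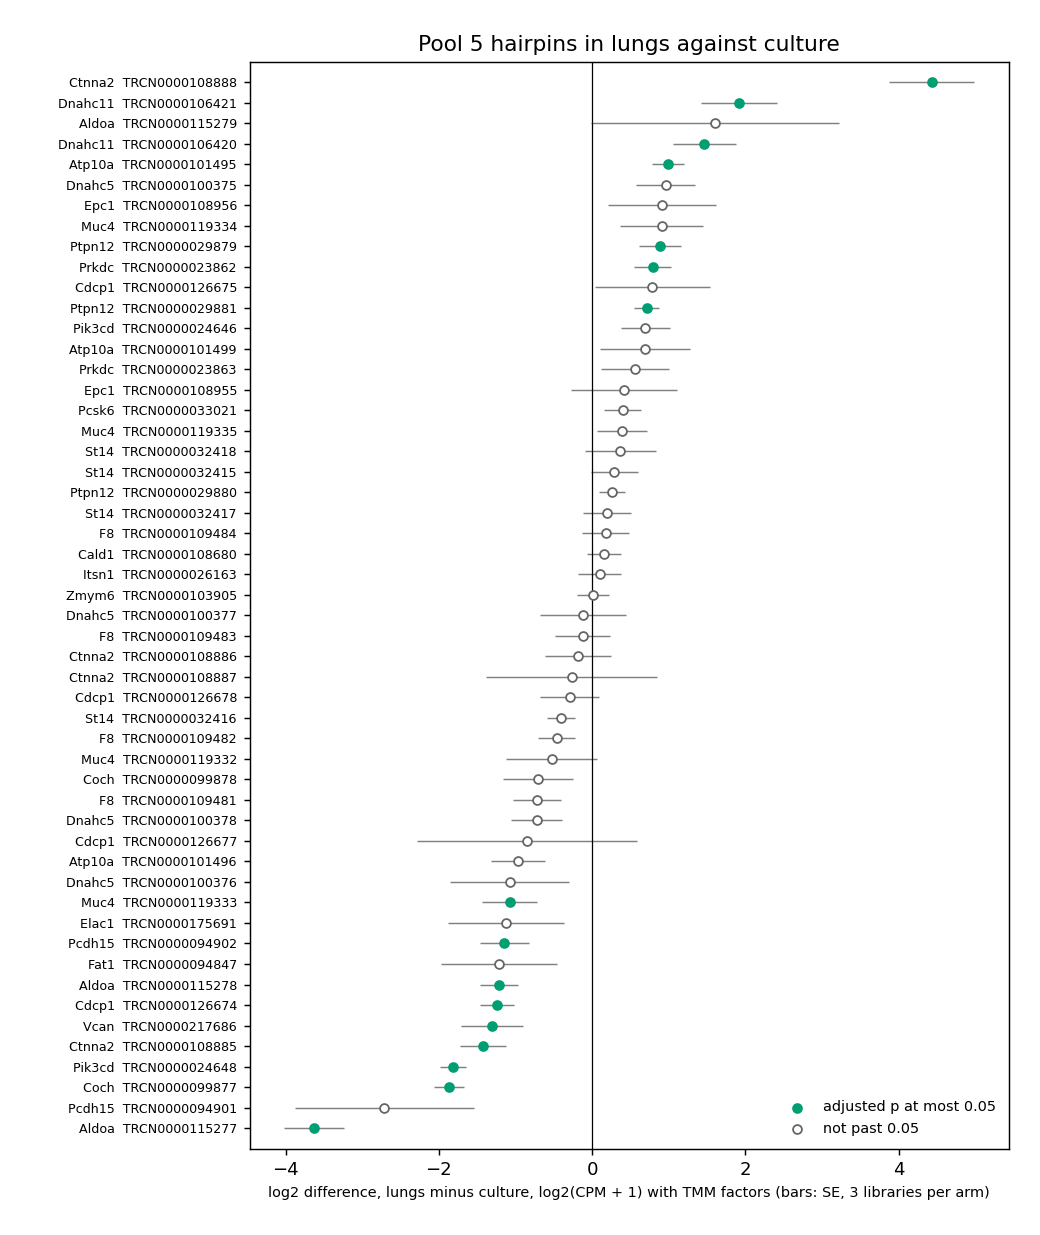
Log2 difference of lungs minus culture for the 52 hairpins in order of size (horizontal axis, log2(CPM + 1) with TMM factors). Points are limma estimates from 3 libraries per arm, bars are their SE, and the 16 filled points passed an adjusted p of 0.05, from 4.43 for Ctnna2 TRCN0000108888 to -3.63 for Aldoa TRCN0000115277. Per control read 6 of the 9 filled points left of 0 lie right of it. Culture libraries also hold the controls of another pool, so division by control reads sets every hairpin lower in culture, whatever its growth. These sign changes therefore do not show that a hairpin was higher in lungs. On library totals 0 of the 16 filled points change sign and 2 lose the call.

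The remaining genes act in metabolism, membranes, RNA and chromatin. Of their 11 hairpins, 2 were called higher and 1 lower in lungs (14.7% and 19.1% over all pools), against 2 and 4 on library totals. In culture 6 were called higher and 3 lower (28.8% and 31.9% over all pools), but 3 and 4 on library totals and 1 and 6 per control read. Between lungs and culture 1 was called higher and 2 lower (11.6% and 13.3% over all pools), against 5 and 1 per control read. Aldoa encodes the glycolytic enzyme aldolase A. TRCN0000115277 had 0.389%, 0.308% and 0.293% at day 0, 2.11%, 1.09% and 1.75% in culture and 0.0857%, 0.229% and 0.174% in lungs. Culture stands well above the start and lungs below it. It rose in culture by 3.03 (SE 0.27, limma adjusted p = 7.35e-07). Lungs were lower than culture by -3.63 (SE 0.39, limma adjusted p = 4.69e-05), with -0.57 against day 0 (limma adjusted p = 0.215), or -1.12 on library totals (limma adjusted p = 0.0458).

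Aldoa TRCN0000115278 was also lower in lungs than in culture. It had 0.941%, 0.945% and 1.23% at day 0, 1.09%, 0.843% and 1.18% in culture and 0.498%, 0.471% and 0.592% in lungs, with only lungs apart. Lungs were below culture by -1.21 (SE 0.25, limma adjusted p = 0.00452), but 0.25 per control read and -0.052 on the deposited values (limma adjusted p = 0.876). Its culture call of 0.75 (SE 0.21, limma adjusted p = 0.00827) was -0.0051 on library totals, -0.66 on the deposited values and -0.81 per control read, the last pair called lower, and was lost without day 0 A or B (0.0697 and 0.0624). TRCN0000115279 was near absence, at 0.00438% of day 0, and had 0 reads in cultures A and C and in lungs A. Its culture change of -3.52 (limma adjusted p = 0.0207) was -2.31 by edgeR (adjusted p = 0.132), -2.22 by DESeq2 (adjusted p = 0.517) and -0.32 with a pseudocount of 100, where it was still called (limma adjusted p = 0.0496). The call was lost by edgeR and DESeq2, in the 3-arm fit (0.0706) and without day 0 C, culture A or culture C (0.116, 0.0531 and 0.0962).

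Atp10a encodes a flippase that moves phospholipids across the plasma membrane. TRCN0000101495 had 2.58%, 2.76% and 3.10% at day 0, 2.46%, 2.34% and 2.41% in culture and 4.68%, 5.89% and 6.27% in lungs. Lungs are 2.00 times the start and 2.34 times culture, with no overlap. It rose in lungs by 1.54 (SE 0.16, limma adjusted p = 0.000866) and was higher in lungs than in culture by 0.99 (SE 0.21, limma adjusted p = 0.00477), and both calls held under every alternative. Its culture call of 0.53 (SE 0.16, limma adjusted p = 0.0136) was -0.22 on library totals, -0.88 on the deposited values and -1.03 per control read, the last pair called lower, and was lost without day 0 A or B (0.216 and 0.0947).

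TRCN0000101496, also against Atp10a, had 1.15%, 1.08% and 0.947% at day 0, 1.35%, 1.44% and 1.57% in culture and 0.802%, 1.43% and 0.576% in lungs, where the mice span the other arms. It rose in culture by 1.21 (SE 0.20, limma adjusted p = 0.00017), but had -0.19 on the deposited values and -0.34 per control read, neither called. Lungs against culture gave -0.97 (limma adjusted p = 0.0659). TRCN0000101499 fell in culture from 0.675%, 0.802% and 0.867% to 0.379%, 0.222% and 0.297%, by -0.66 (SE 0.26, limma adjusted p = 0.0397). That call was lost without day 0 B or C or culture B or C (0.127, 0.0919, 0.0835 and 0.0637), with DESeq2 (0.0681), with the replicate block (0.0679) and in the 3-arm fit (0.303). Its lung shares were 0.223%, 1.41% and 0.539%, below, above and below the start. Lungs against culture gave 0.69 (limma adjusted p = 0.404), or 2.16 per control read (limma adjusted p = 0.0252).

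Zmym6 encodes a zinc finger protein of the MYM type, Itsn1 the endocytic scaffold intersectin, Epc1 a subunit of a histone acetyltransferase complex and Elac1 an enzyme that trims transfer RNA. Zmym6 TRCN0000103905 had 2.71%, 2.78% and 2.87% at day 0, 6.08%, 5.42% and 4.97% in culture and 7.99%, 6.40% and 5.31% in lungs, above the start in all 6 later libraries. It rose in lungs by 1.77 (SE 0.28, limma adjusted p = 0.00459) and in culture by 1.73 (SE 0.14, limma adjusted p = 1.9e-07), the latter 0.32 on the deposited values (limma adjusted p = 0.0623) and 0.17 per control read (limma adjusted p = 0.294). Itsn1 TRCN0000026163 had 1.43%, 1.57% and 1.74% at day 0, 0.448%, 0.509% and 0.70% in culture and 0.510%, 0.793% and 0.779% in lungs, below the start throughout. It fell in culture by -0.79 (SE 0.22, limma adjusted p = 0.00854) and in lungs by -0.66 (SE 0.12, limma adjusted p = 0.00835), the latter lost without day 0 A, B or C (0.122, 0.172 and 0.0862).

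Epc1 TRCN0000108955 had 0.0327% at day 0, 0.0345% in culture and 0.0575% in lungs. Its culture call of 0.79 (SE 0.31, limma adjusted p = 0.0441) was 0.037 on library totals, -0.62 on the deposited values and -0.76 per control read. Without day 0 A, B or C or culture A or B the p was 0.172, 0.168, 0.109, 0.0503 and 0.061, so all but culture C were needed. DESeq2, the replicate block and the 3-arm fit also lost it (0.115, 0.101 and 0.223). Epc1 TRCN0000108956 had -1.06 in culture (limma adjusted p = 0.0539), or -1.81 on library totals (limma adjusted p = 0.00649). Elac1 TRCN0000175691 had 0.132%, 0.122% and 1.25% in cultures A to C, from 0.326%, 0.332% and 0.519% at day 0. Culture C alone was high. With lung shares of 0.141%, 0.169% and 0.132% Elac1 had -0.83 in lungs (limma adjusted p = 0.0572), or -1.38 on library totals (limma adjusted p = 0.00823), and its other comparisons were not called on either scale.

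Hairpins of 1 gene were set beside hairpins of different genes. The median distance between log2 changes was 1.27 over the 51 pairs that share a gene and 1.02 over the 1275 that do not for lungs, and 1.55 and 1.38 for culture. For lungs against culture the order was the other way, at 0.89 and 1.09. Among pairs with both hairpins called, the signs agreed in 3 of 7 of the same gene (42.9%, against 47.6% for different genes) in lungs, in 8 of 25 (32.0%, against 49.3%) in culture and in 3 of 4 (75.0%, against 46.6%) for lungs against culture. Pairs that share a hairpin are not independent, so these values are a description. In lungs against day 0, 3 genes had at least 2 called hairpins, St14, F8 and Dnahc5, and in 2 of these, St14 and F8, the calls went both ways; on library totals it was 3 of 7 genes. In culture 11 genes had at least 2 called hairpins, and in 10 of them the calls went both ways. This count depends on the scaling: calls went both ways in 7 of 13 such genes on library totals, 4 of 13 on the deposited values and 3 of 13 per control read. Pik3cd and Aldoa were among them on each scale. On the deposited values 5 culture calls were higher and 36 lower, and per control read 4 and 37, which leaves little room for calls both ways. Both hairpins against Dnahc11 were called lower. For lungs against culture, Ptpn12 and Dnahc11 had 2 hairpins called higher and Aldoa 2 called lower, while Ctnna2 had 1 each way. Per control read 10 genes had at least 2 called hairpins and 0 of them had calls both ways. On that scale 30 calls were higher and 1 lower, so agreement within a gene says little there. Of the TMM calls, both Dnahc11 calls and 1 of the Ptpn12 calls were lost under plain eBayes. The share at day 0 said little about the lung and culture difference: across the 52 hairpins its log2 value and that difference had Pearson r = 0.05 and Spearman rho = 0.08.

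The 8 control hairpins, which every pool carried, did not keep 1 common level. Together they had 40.9% ± 0.30 of targeting and control reads at day 0 and 33.8% ± 2.43 in lungs (SD, n = 3), a difference of -7.03 percentage points (exact two-sided permutation p = 0.1, the smallest possible). Per 100 targeting reads, 1 of the 8 was above the day 0 range in all lungs, 6 were below it and 1 overlapped. Non-targeting-shRNA-1 overlapped, with 24.4, 24.6 and 23.3 at day 0 and 20.6, 24.3 and 26 in lungs. The other non-targeting hairpin had 5.15, 4.94 and 4.68 at day 0 and 0.389, 0.237 and 0.676 in lungs, a ratio of 0.0882. The hairpin against Cdkn1b, a cyclin-dependent kinase inhibitor, had 9.95, 9.85 and 11.0 at day 0 and 19.3, 18.6 and 22.3 in lungs, a ratio of 1.95. The hairpins named for PIK3CA, MUC1 and GFP had ratios of 0.145, 0.238 and 0.497. Both non-targeting hairpins thus gave different baselines, and a change per control read depends on which control is used.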

How the data were processed

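Genomic DNA was amplified in 2 PCR steps and sequenced, per the labels' protocols, and BWA 0.5.9 is named in the submitters' processing notes. The deposited files list a normalised read signal per hairpin, made by the authors; the formula is not given in the sources used here. Each signal was divided by the smallest of its library, taken as 1 read. All 1518 of 1518 values of these 9 libraries, and 27241 of 27241 in the series, came out as whole counts within 0.01 reads. A hairpin without a value was taken as 0 reads. Values of 148 samples were used, and 10 samples without values were not analysed here.

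Reads of a pool's targeting hairpins became CPM with TMM factors (edgeR 4.0.16), and log2(CPM + 1) was fitted per pool for the 2 arms compared with limma 3.58.1 in R 4.3.3, with trend and robust eBayes. Fold changes are on this scale; those of rare hairpins depend on the pseudocount and can be smaller or larger than edgeR's. A hairpin needed a mean of 10 reads over the libraries of a fit, which all 52 of pool 5 had, and the Benjamini-Hochberg adjustment ran over the hairpins of every pool. The plan named edgeR for raw counts; since the unit was a scaled signal, limma was used, with edgeR's quasi-likelihood test and DESeq2 1.42.0 on recovered reads as alternatives. In pool 5 edgeR called 18, 36 and 14 hairpins for lungs against day 0, culture against day 0 and lungs against culture. Other alternatives were library totals, control hairpin reads, the deposited signal, a pseudocount of 100, other read minimums, plain eBayes, a replicate block, 3 arms in 1 fit and leaving out each library. Steps were tested on simulated data.

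The members and lists were chosen with earlier results of these data known. Full values are given for the 5 called hairpins of lowest p per direction and comparison, for hairpins of genes with at least 2 calls in a comparison and for the 3 most abundant per arm; every gene is named. Of a list of growth control genes, pool 5 holds Pik3cd and Fat1, and it holds none of the lists of RNA and protein synthesis genes or ion channels. Current symbols were matched by accession for 20 of 22 genes, using RefSeq for GRCm38.p6. Letters A to C were not treated as pairs, since the labels do not say that they pair libraries. Correlations of deviations ran from -0.134 to 0.523 between same-letter libraries and from -0.488 to 0.35 between libraries of different letters. All same-letter values were positive for lungs against day 0 and for lungs against culture, so pairing remains possible. Hairpin sequences were not used here. Control hairpins were described as a group, and some are not named.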

Additional observations from a re-analysis of the deposited data

Results flagged for a closer look

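Hairpin TRCN0000108888 against Ctnna2 moved in opposite directions in the dish and in the mouse: all 3 culture shares were below and all 3 lung shares above the day 0 range, and the direct difference of lungs minus culture was 4.43 on the log2 scale (SE 0.56, limma adjusted p = 0.000149). Its mean shares were 0.374% ± 0.0080 at day 0, 0.0345% ± 0.0114 in culture and 0.939% ± 0.561 in lungs (SD, n = 3). In lungs most of the spread came from mouse B, at 1.58%, beside 0.519% and 0.721%. The remaining 3 hairpins against this gene had lungs minus culture differences of -1.42, -0.18 and -0.27.

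Lung library A held 0.201% of its reads from pool 6 hairpins, which the mouse was not labelled to carry. The highest such value in the day 0 libraries of pool 5 was 0.0394%, cultures A to C had 0.0618%, 0.0112% and 0.00369%, and lungs B and C had 0.00752% and 0.0195%. All pool 5 shares were computed over pool 5 hairpins alone, so these reads enter none of them.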

How the results depend on the processing

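For the 73 called hairpin results, 1240 values were computed under alternatives: 1076 kept direction and call, 128 kept direction and lost the call, and 36 changed sign, of which 10 were called the other way (limma adjusted p = 1.9e-05 to 0.0214). These 10 were the culture values of Ptpn12 TRCN0000029880, St14 TRCN0000032416, Atp10a TRCN0000101495, Aldoa TRCN0000115278 and Cdcp1 TRCN0000126674, on the deposited values and per control read. The sign changes occurred only under another scaling, and the cause was not tested. Culture libraries hold pools 4 and 5 with the controls of both. Pool 5 had 43.4%, 49.9% and 48.8% of their targeting reads in cultures A to C. Division by control reads thus sets pool 5 lower in culture than in the other arms, whatever its growth. The deposited values have 1 factor per library, by a formula not given here. Calls the other way on these scales therefore do not show that a hairpin fell. For culture against day 0, library totals gave Atp10a TRCN0000101495 -0.22, Aldoa TRCN0000115278 -0.0051 and Cdcp1 TRCN0000126674 -0.24. The deposited values gave Ptpn12 TRCN0000029880 -0.33, St14 TRCN0000032416 -0.28, Dnahc5 TRCN0000100378 -0.25, Atp10a TRCN0000101495 -0.88 and TRCN0000101496 -0.19, Ctnna2 TRCN0000108885 -0.14, Epc1 TRCN0000108955 -0.62, Aldoa TRCN0000115278 -0.66, Muc4 TRCN0000119333 -0.32, Cdcp1 TRCN0000126674 -0.89 and TRCN0000126677 -0.47, and Vcan TRCN0000217686 -0.36. The control hairpin total gave these same hairpins -0.47, -0.43, -0.40, -1.03, -0.34, -0.29, -0.76, -0.81, -0.47, -1.04, -0.62 and -0.51, and Pcdh15 TRCN0000094901 -0.10. For lungs against culture, the deposited values gave Pcdh15 TRCN0000094902 0.017 and Muc4 TRCN0000119333 0.086. The control total gave these 0.32 and 0.39, Ctnna2 TRCN0000108885 0.045, Aldoa TRCN0000115278 0.25, Cdcp1 TRCN0000126674 0.23 and Vcan TRCN0000217686 0.17. Calls were kept under all alternatives for 9 of 19 hairpins in lungs against day 0, 19 of 38 in culture against day 0 and 3 of 16 in lungs against culture.

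The number of calls for lungs against day 0 went from 19 to 29 on library totals. For lungs against culture it went from 16 to 10 with plain eBayes, 27 on the deposited values and 31 per control read. Leaving out 1 library gave 15 to 24, 33 to 38 and 11 to 15 calls for lungs against day 0, culture against day 0 and lungs against culture. With a replicate block there were 18, 36 and 16 calls; the letters are not shown to pair libraries. With the control hairpins counted, the effective number differed by -14.57 for culture minus day 0 and by 6.55 for lungs minus culture, whose ranges were then apart (exact permutation p = 0.1) where they overlapped without controls. Culture libraries hold the controls of pools 4 and 5, so with controls the arms are not comparable. Leaving out 1 library, the effective number differed from day 0 by -7.66 to -6.05 in lungs and -8.81 to -7.98 in culture, lungs minus culture by 0.71 to 2.32, and the control share of lungs minus day 0 by -8.24 to -5.81 percentage points. With 3 libraries per arm, an exact test of a single value cannot go below 0.1. Shares near 0.001% rest on few reads and show no reliable fold.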

Other observations

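Genes of pool 5 also had hairpins in other pools, grown in other mice and mostly other dishes, and 13 of the 22 genes did, 10 of them with hairpins that were tested. Of these 20 hairpins, the 9 called in at least 1 comparison are given with their calls, and the second hairpin of a gene beside them. Over all pools 33.8% were called in lungs against day 0, 60.6% in culture against day 0 and 24.9% in lungs against culture. The 9 of 20 in any comparison is below the culture share alone. Their values were fitted with their own pool and compare with its own day 0. In pools 14 and 16 the mean Pearson r between lung libraries was 0.724 and 0.712, ranks 15 and 17 of 17 pools. Pool 16 had 2 lung libraries. A missing lung call in these pools therefore says little. Fat1 TRCN0000094848 in pool 6 rose in culture by 1.92 (SE 0.14, limma adjusted p = 1.01e-07) and was lower in lungs than in culture by -2.48 (SE 0.28, limma adjusted p = 5.58e-08). The Fat1 hairpin of pool 5 had -0.33 and -1.21 in these comparisons and was called in neither. The Fat1 hairpin of pool 7, TRCN0000094846, had 0.88 and -1.22 there, neither called. Cald1 TRCN0000305037 in pool 14 rose in culture by 3.20 (SE 0.19, limma adjusted p = 8.1e-09), beside 2.67 for the pool 5 hairpin, but had 0.85 in lungs (SE 1.15, limma adjusted p = 0.60), beside 2.86. The second Cald1 hairpin of pool 14, TRCN0000348969, had -0.14 in culture and 0.52 in lungs, neither called.

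Pcdh15 TRCN0000094900 in pool 4 fell in lungs by -2.24 (SE 0.34, limma adjusted p = 0.00513), and TRCN0000094902 of pool 5 fell by -1.47. The other Pcdh15 hairpin of pool 4, TRCN0000094899, had -0.0040 there. Pik3cd TRCN0000361415 in pool 16 fell in culture by -1.43 (SE 0.23, limma adjusted p = 0.000233) and in lungs by -1.43 (SE 0.30, limma adjusted p = 0.0194), whereas its second hairpin there, TRCN0000361345, had 0.40 and -0.65, neither called. Prkdc TRCN0000361373 in pool 16 fell in culture by -1.53 (SE 0.25, limma adjusted p = 0.000244), and Prkdc TRCN0000023863 of pool 5 fell by -1.12. The second Prkdc hairpin of pool 16, TRCN0000361436, had -0.62 and was not called. Itsn1 TRCN0000328006 in pool 14 fell in culture by -1.06 (SE 0.41, limma adjusted p = 0.0371), and the pool 5 hairpin by -0.79, while TRCN0000328009 had -0.48 and was not called. In lungs, where the pool 5 hairpin fell by -0.66, these Itsn1 hairpins had 0.046 (SE 0.84) and 0.52 (SE 0.55), neither called. Zmym6 TRCN0000295266 in pool 14 fell in culture by -1.08 (SE 0.30, limma adjusted p = 0.00804), where the pool 5 hairpin rose by 1.73 and TRCN0000295277 of pool 14 had 0.46, not called. Pcdh15 TRCN0000094899 of pool 4 fell in culture by -0.48 (SE 0.13, limma adjusted p = 0.0121), beside 1.45 and -0.35 for the pool 5 hairpins. Pcsk6 TRCN0000334329 in pool 16 rose in culture by 1.79 (SE 0.35, limma adjusted p = 0.00112), where the pool 5 hairpin fell by 0.53 and TRCN0000334330 of pool 16 had 0.47, not called. The 4 tested hairpins against Coch (pool 15) and Dnahc11 (pool 14) had no call, with culture changes from -1.32 to 0.63. Whether these differences come from the hairpin or from the pool was not tested.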
